A study of Homo sapiens with 27 samples.

Results

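In the human glioblastoma line LN-229, 7 Mb of the short arm of chromosome 9 around CDKN2A (band 9p21, GRCh38 chr9:19000001-26000000) were examined as 700 windows of 10 kb out of 286302 windows of the autosomes and X that held a site. Sites at any base were used, with a mapping score (explained below) of at least 30. The members followed were CDKN2A, CDKN2B, MTAP, DMRTA1 and ELAVL2. A stretch of 68 kb with CDKN2A and CDKN2B had almost no marked sites in any library, while MTAP, which is often lost with them, was present in every library with its last part at a lower level. DMRTA1 and ELAVL2 lay well outside.

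The assay was O6-MeG-seq, in which DNA fragments that carry O6-methylguanine (a base damage left by methylating drugs) are enriched with an antibody, and a polymerase that stops at the damage marks its position. There were 27 libraries in 9 groups of 3, which the series describes as biological replicates. Cells were LN-229 carrying a transfection control (named WT) or transfected with MGMT, the enzyme that removes the methyl group. They received 1 mM temozolomide (TMZ), a methylating drug, or 1% DMSO as solvent, 1 time or 3 times at 4 h intervals, and their DNA was collected 24 h from the start (WT solvent 1x and 3x, WT TMZ 1x and 3x, and the same 4 groups of MGMT cells). The last group was purified DNA treated with TMZ outside cells (naked DNA), with replicate 1 made from WT cells that had not been transfected, replicate 2 from WT cells and replicate 3 from MGMT cells. All groups therefore come from LN-229, and no library of a genome with intact 9p21 serves as a reference here.

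CDKN2A encodes p16INK4a, an inhibitor of the cell cycle kinases CDK4 and CDK6, and from an upstream start in another reading frame p14ARF, which restrains MDM2 and so protects p53. CDKN2B, next to it, encodes the related inhibitor p15INK4b. MTAP encodes the methylthioadenosine phosphorylase of the methionine salvage pathway. Deletion of CDKN2A is common in glioblastoma and often takes MTAP with it, which is known to make cells more sensitive to low activity of the arginine methyltransferase PRMT5. A site list has no count of reads, so what is compared below is the number of marked positions per base of the reference.

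The lists held from 1347019 to 15745885 sites per library, of which 594592 to 12443872 were autosomal with a score of 30 or more (47.2% to 86.7% of autosomal sites). Scores ran from 0 to 42. In mapping scores of this kind, a low value is given to a read that fits several places about equally well. The solvent library MGMT 1x replicate 1 stood apart: 37.3% of its sites in these 7 Mb were at G, against 17.2% to 25% in the other solvent libraries, and it was also the second smallest there with 1703 sites. Values without it are given beside the tested differences whose sign it turns or that it moves most. By the positions they shared, the libraries fell into 5 sets that cut across the groups, and within-set values are given for the comparisons of TMZ with solvent that passed the test.

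The promoters show where sites were found at the level of the bases. The sequences are from RefSeq (GRCh38.p14), from 250 bases before to 50 bases after a start, 5′ to 3′ along the gene. Capitals mark each position that held a site on either strand in at least 1 of the 27 libraries. They are shown because the first 2 genes lie in the stretch without sites and the others on its sides.
CDKN2A, upstream start, chr9:21995275-21995574, minus strand: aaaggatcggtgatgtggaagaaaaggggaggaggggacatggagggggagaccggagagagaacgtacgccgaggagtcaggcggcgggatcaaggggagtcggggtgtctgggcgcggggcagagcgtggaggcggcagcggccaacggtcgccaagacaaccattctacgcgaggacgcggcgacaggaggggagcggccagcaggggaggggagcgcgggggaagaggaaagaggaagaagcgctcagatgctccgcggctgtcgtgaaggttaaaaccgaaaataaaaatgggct
CDKN2A, downstream start, chr9:21974808-21975107, minus strand: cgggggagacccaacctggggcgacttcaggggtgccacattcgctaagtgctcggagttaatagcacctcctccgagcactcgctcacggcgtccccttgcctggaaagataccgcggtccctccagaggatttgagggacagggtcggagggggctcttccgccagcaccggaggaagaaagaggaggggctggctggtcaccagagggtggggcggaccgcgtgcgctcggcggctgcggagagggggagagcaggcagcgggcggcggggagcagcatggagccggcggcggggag
CDKN2B, chr9:22009256-22009555, minus strand: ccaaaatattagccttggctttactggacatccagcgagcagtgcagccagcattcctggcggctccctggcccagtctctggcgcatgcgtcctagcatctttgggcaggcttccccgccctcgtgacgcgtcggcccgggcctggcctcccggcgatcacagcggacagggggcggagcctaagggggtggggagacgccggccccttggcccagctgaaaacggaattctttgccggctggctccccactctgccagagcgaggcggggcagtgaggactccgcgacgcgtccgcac
MTAP, chr9:21802386-21802685, plus strand: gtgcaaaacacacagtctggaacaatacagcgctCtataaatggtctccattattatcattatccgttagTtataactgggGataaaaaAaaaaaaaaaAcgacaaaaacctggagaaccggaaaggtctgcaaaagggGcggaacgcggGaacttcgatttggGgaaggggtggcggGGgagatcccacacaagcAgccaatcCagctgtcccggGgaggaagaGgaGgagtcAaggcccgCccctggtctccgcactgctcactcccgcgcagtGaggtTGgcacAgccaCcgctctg
DMRTA1, chr9:22446574-22446873, plus strand: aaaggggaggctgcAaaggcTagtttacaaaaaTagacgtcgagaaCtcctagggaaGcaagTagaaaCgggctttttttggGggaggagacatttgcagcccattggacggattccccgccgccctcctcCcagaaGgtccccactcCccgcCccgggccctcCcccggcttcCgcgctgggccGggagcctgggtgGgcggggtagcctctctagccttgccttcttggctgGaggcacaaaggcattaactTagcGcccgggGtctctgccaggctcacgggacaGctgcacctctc
The 3 promoters of CDKN2A and CDKN2B had no capital, that is 0 sites in 27 libraries. The MTAP promoter held 26 sites at 22 positions from 13 libraries, of which 19 were at G, and the DMRTA1 promoter held 23 sites at 21 positions from 10 libraries, of which 16 were at G. The CDKN2A promoters had more possible target bases than that of MTAP, with 28 and 26 CG dinucleotides and a GC content of 63.3% and 69.0%, against 15 and 53% for MTAP. Of the 62 promoters of these 7 Mb in the table, 5 lay in the stretch (4 gene symbols) and all 5 had 0 sites, while each of the other 57 had at least 2 (median 12, highest 39). The 6 promoters of ELAVL2, a neuronal RNA-binding protein gene, held 9 to 39 sites, some of them counted in overlapping promoters. Over the 11 promoters of the 5 members, 164 of 164 sites had the base of the reference.

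The stretch without sites was called on naked DNA, so that the cell libraries played no part in choosing it. A 10 kb window was taken as missing where its pooled sites were under 0.1 of the median autosomal window (100 sites in naked DNA). In these 7 Mb, 6 of 700 windows (0.857%) were missing, against 3.37% of 274732 autosomal windows. The 6 windows were adjacent, from 21970001 to 22030000, and no other window of the 7 Mb was missing. All 27 libraries together (background 3.33%), the 12 WT libraries (3.32%) and the 12 MGMT libraries (3.3%) each called the same 6 windows. The 12 TMZ and the 12 solvent libraries placed the same first and last window. In the windows of the whole 7 Mb the median level was 0.80 of the median autosomal window in naked DNA, 0.847 in WT cells and 0.833 in MGMT cells.

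**Figure D1:**
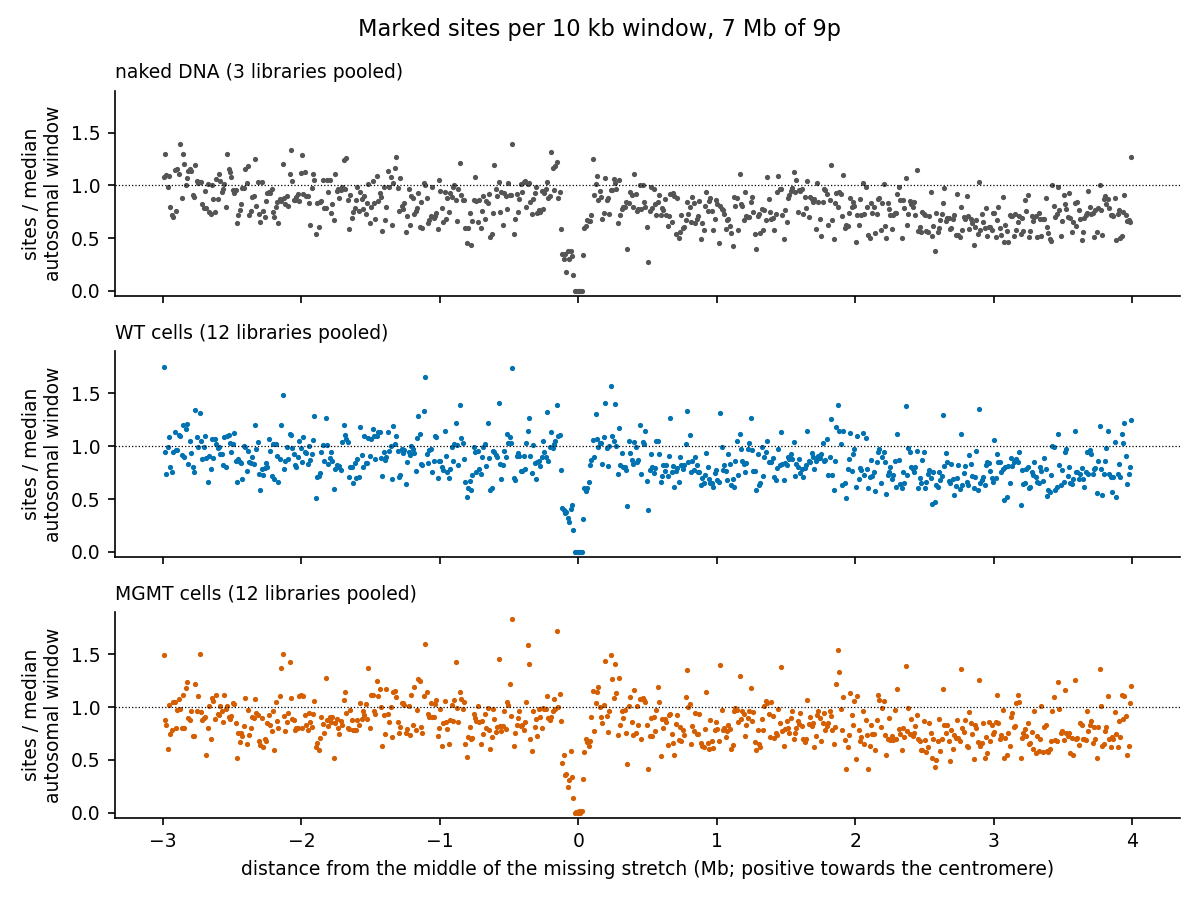
Sites per 10 kb window divided by the median autosomal window (y axis) against the distance from the middle of the missing stretch in Mb (x axis), for naked DNA (3 libraries pooled), WT cells and MGMT cells (12 libraries each). In all 3 panels 6 adjacent windows at distance 0 fall to 0 or nearly 0 and no other window falls under 0.1.

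Finer edges were placed at the change in site density in 1 kb bins. In naked DNA the edges were 21965001 and 22033001, which gives a core of 68 kb. In WT cells they were 21964001 and 22033001, and in MGMT cells 21965001 and 22033001, so the 3 kinds of library placed each edge within 1 kb. The last site before the core lay at 21964709 in naked DNA and at 21964218 in WT cells. The first site after it lay at 22033801 in naked DNA and at 22033516 in WT cells, leaving 69.1 kb and 69.3 kb without a site. Placed in each cell library alone, the edge nearer the 9p telomere averaged 21953.3 kb in MGMT and 21957.9 kb in WT cells (SD 26.4 and 14.3, n = 12 each), a difference of -4.58 kb (exact permutation test, two-sided, p = 0.576, adjusted p = 0.831), or 2.71 kb without MGMT solvent 1x replicate 1 and 1.25 kb without a minimum score. The edge nearer the centromere averaged 22036.3 kb and 22036.9 kb (SD 4.75 and 7.79), a difference of -0.583 kb (exact permutation test, p = 0.887, adjusted p = 0.942). That difference turned to 0.625 kb without replicate 1, 5.42 kb with G sites only and 9.42 kb without a minimum score. The farthest placements were 21871.0 kb in MGMT solvent 1x replicate 1 and 22061.0 kb in WT TMZ 1x replicate 1, and the SD over 24 cell libraries was 20.9 kb for the first edge and 6.32 kb for the second.

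Within the core, naked DNA had 0 sites in 3 of 3 libraries where the density of the flanks would give 553.0. That count allows a level of up to 0.543% of the flanks (3 counts), and this limit and the intervals here cover counting error only. The choice of the core is not covered: its edges were placed on these same naked DNA libraries, so their 0 is a description. The 12 WT libraries had 0 sites where the flanks would give 1011, which allows up to 0.297%. The 12 MGMT libraries had 6 sites against 851.2, which is 0.705% of the flanks (exact Poisson 95% interval 0.259% to 1.53%). They came from 3 libraries, with 3 sites in MGMT solvent 3x replicate 1, 2 in MGMT TMZ 1x replicate 1 and 1 in MGMT solvent 1x replicate 2, and the other 9 had 0. Their positions were 21965230, 21987486, 22009042, 22009885, 22021116 and 22024817, all with a score of 37 or 42. These were the only sites with a score of 30 or more among all 27 libraries in the 68 kb. Over the 6 called windows the level was 0.868% ± 1.84 (SD, n = 12) of the flanks in MGMT and 0% in all 12 WT libraries, and this difference of 0.868 points did not pass the test (exact permutation test, two-sided, p = 0.25, adjusted p = 0.472, higher in 3 of 12 comparisons of same-numbered libraries). It was 0.178 points without replicate 1 of each group, 1.34 with G sites only and 2.56 without a minimum score, none of which passed. Sites in these windows came from only 3 libraries, all MGMT, and the other 9 comparisons were ties at 0. With so few libraries above 0 the exact permutation test could not give a p under 0.25. It therefore does not decide whether the genotypes differ here. TMZ and solvent libraries differed by 0.108 points (exact permutation test, p = 1.0, adjusted p = 1.0), -0.178 without replicate 1 and -5.47 without a minimum score, with 2 core sites in the 12 TMZ and 4 in the 12 solvent libraries. At the depth of single libraries the flanks would give 13.3 to 245 sites in the core, so the smallest library alone allows up to 22.5%.

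The 3 windows of the stretch with the most sites over 27 libraries were 22000001 to 22010000 and 22020001 to 22030000 with 2 each, and 21980001 to 21990000 with 1. The other 3 windows had 0. For comparison, the median autosomal window held 417 sites over the 27 libraries.

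CDKN2A (chr9:21967752-21995324, 27.6 kb) and CDKN2B (chr9:22002903-22009313, 6.41 kb) lay wholly in the core. CDKN2A began 2.75 kb inside the telomeric edge, and CDKN2B ended 23.7 kb inside the other edge. Each had 1 site over the 27 libraries, in MGMT solvent 3x replicate 1 for CDKN2A and in MGMT TMZ 1x replicate 1 for CDKN2B, and 0 in the 12 WT and the 3 naked DNA libraries. The gene table places 3 further genes wholly in the core, the noncoding CDKN2A-AS1 (0 sites) and LOC124902130 (1 site) and the pseudogene UBA52P6 (0 sites). The long noncoding CDKN2B-AS1, known as ANRIL, starts in the core and runs out of it (chr9:21994791-22128142), with 28.7% of its length inside. The gene fits below covered protein-coding genes, so CDKN2B-AS1 was not in them.

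Beyond each edge of the core the density did not return at once to that of the flanks. A second change in density lay at 21873001 on the telomeric side and at 22096001 on the other, both placed on naked DNA. The side before the core was thus 92 kb long and the side after it 63 kb. These sides were noticed in the data and their tests were added afterwards, on the 24 cell libraries, which had not placed them. Cells and naked DNA share the LN-229 genome. The tests of the sides against the flanks and against each other thus show only that cell libraries repeat steps already seen. They are no independent support for the sides. The outer edges ran from 21873001 to 21879001 and from 22078001 to 22096001 over the 6 pools of libraries tried (naked DNA, WT, MGMT, TMZ, solvent and all 27).

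**Figure D2:**
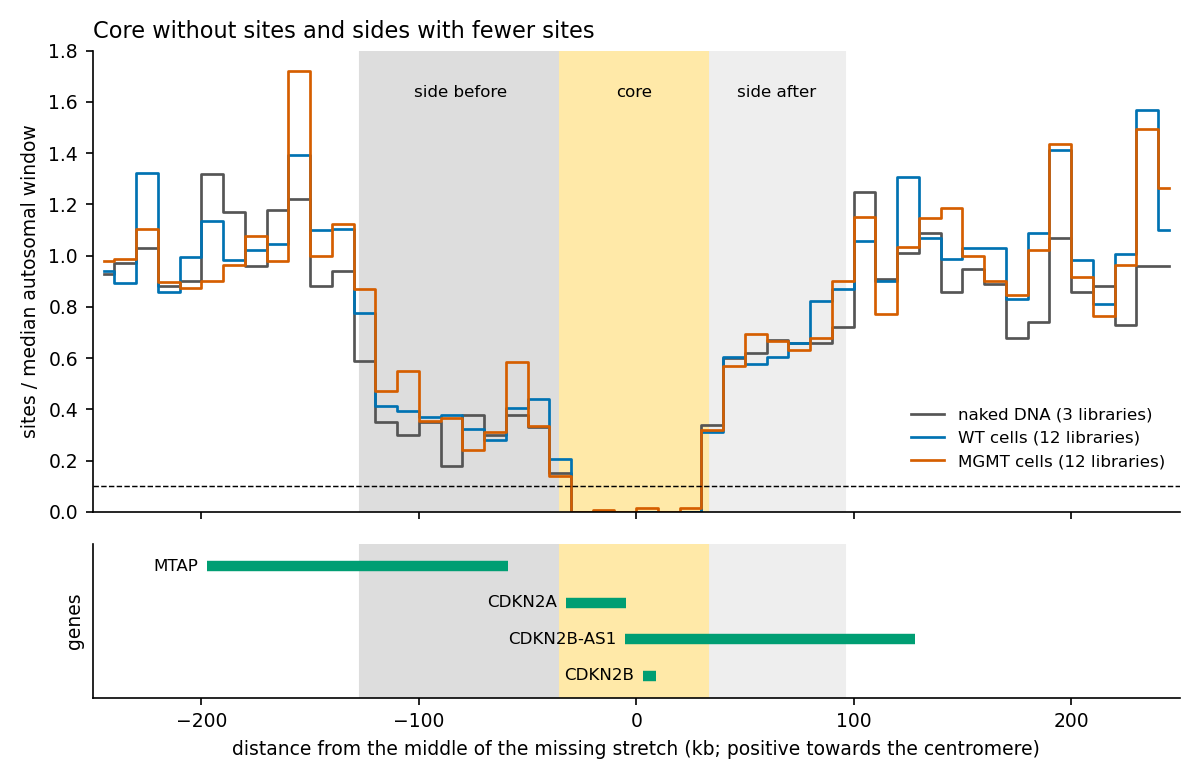
Sites per 10 kb window divided by the median autosomal window (upper panel, y axis) against the distance from the middle of the stretch in kb (x axis), with the core and both sides shaded, the 0.1 threshold dashed and gene spans below. WT, MGMT and naked DNA follow the same steps, and the span of MTAP crosses from the flank into the side before the core.

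In the side before the core, the 3 naked DNA libraries reached 39.7%, 34.5% and 42.9% of the density of the flanks (39.1% ± 4.23, SD, n = 3). WT cells had 45.8% ± 9.12 (n = 12, lowest 27.7%, median 46.1%, highest 59.2%) and MGMT cells 47.7% ± 13.4 (n = 12, lowest 17.4%, median 46.4%, highest 67.3%). The lowest value was that of MGMT solvent 1x replicate 1, from 4 sites. In the 24 cell libraries the difference from the flanks was -53.2 points (SD 11.2), lower in 24 of 24 (permutation test by sign flips, two-sided, p = 1e-05, the smallest it can give, adjusted p = 4.25e-05).

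The side after the core was higher. Naked DNA had 77.4%, 73.4% and 75.3% of the flanks, and the 3 values lay above all 3 of the side before. WT cells had 71.6% ± 11.8 (n = 12, 51.3% to 92.1%) and MGMT cells 69.5% ± 10.7 (n = 12, 49.5% to 80.7%). In cell libraries the difference from the flanks was -29.4 points (SD 11.1), lower in 24 of 24 (permutation test, p = 1e-05, adjusted p = 4.25e-05), or -19.1 points without a minimum score. Within the same library the side after the core exceeded the side before it by 23.8 points (SD 14.6), in 21 of 24 libraries (permutation test by sign flips, p = 1e-05, adjusted p = 4.25e-05).

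WT and MGMT cells did not differ beyond their spread on either side. The difference MGMT minus WT was 1.82 points before the core (exact permutation test, p = 0.684, adjusted p = 0.831) and -2.08 points after it (exact permutation test, p = 0.67, adjusted p = 0.831). TMZ minus solvent was -4.25 points before the core (exact permutation test, p = 0.38, adjusted p = 0.646) and 2.1 points after it (exact permutation test, p = 0.67, adjusted p = 0.831). Without MGMT solvent 1x replicate 1 the differences before the core were 5.15 points for MGMT (exact permutation test, p = 0.206) and -7.58 points for TMZ (exact permutation test, p = 0.0562). Before the core the TMZ difference was -8.33 points without a minimum score (exact permutation test, unadjusted p = 0.0345) and 0.0627 with G sites only, where the MGMT difference was -1.56. After the core the MGMT difference turned to 0.404 without that library, 0.336 and 2.97 without replicate 1 or 3, and 2.35 without a minimum score. The TMZ difference there turned to -0.378 without that library, -0.839 without replicate 3 and -2.87 without a minimum score. With G sites only it was 14.4 points (exact permutation test, unadjusted p = 0.0996). With an SD between libraries of a genotype of 9.12 to 13.4 points, these comparisons do not show that the levels were equal. Fewer copies of a side in each cell, its loss in only a part of the cells, and fewer marked sites per copy cannot be told apart in bulk site lists.

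**Figure D3:**
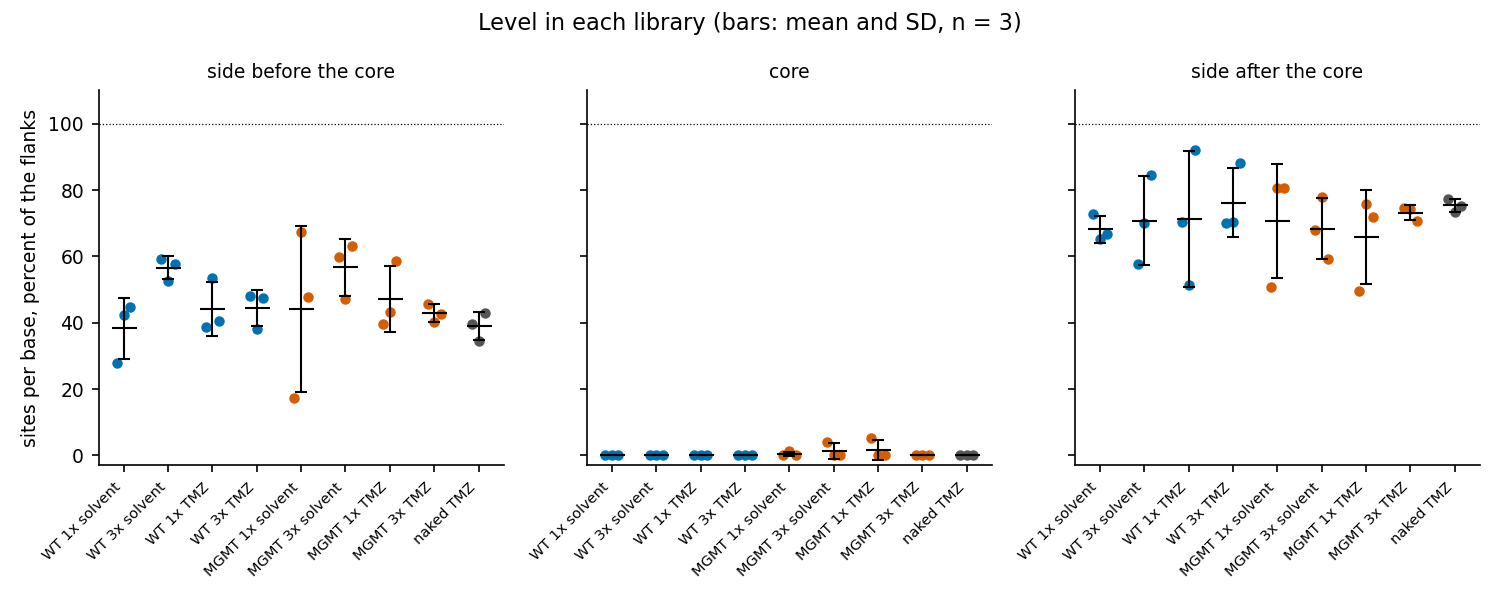
Sites per base as a percentage of the flanks (y axis) in each library (points) of the 9 groups (x axis), for the side before the core, the core and the side after it, with mean and SD (n = 3). The core is at 0 in all WT and naked DNA libraries and at most 5.1% in MGMT libraries, the side before lies between 17.4% and 67.3%, and the side after between 49.5% and 92.1%.

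MTAP (chr9:21802636-21941115, 138 kb, plus strand by its promoter) did not lie in the core: its end is 23.9 kb before it. A complete loss of MTAP along with CDKN2A was thus not what the sites showed. MTAP had 4334 sites over the 27 libraries and at least 1 in 27 of 27. Its first 70.4 kb lay before the outer edge and its last 68.1 kb in the side before the core. In the first part, naked DNA reached 121%, 136% and 156% of the flanks, WT cells 126% ± 11.1 (n = 12, 110% to 140%) and MGMT cells 124% ± 16.0 (n = 12, 98.5% to 156%). In the last part naked DNA reached 38.6%, 34.3% and 41.3%, and WT cells 46.0% ± 8.93 (37.3% to 64.7%). MGMT cells had 47.8% ± 16.0 there (5.88%, from 1 site in MGMT solvent 1x replicate 1, to 67.0%). The ranges did not overlap, and the first part was above the last in 27 of 27 libraries, by 48.0 to 115 points (median 82.4). The gene table gives no exons, so which exons lie in the last part was not determined. The outer edge was placed on the naked DNA densities, so the step in naked DNA is a description with no test. Relative to the flanks, TMZ libraries had 129% ± 15.5 in the first part and 43.7% ± 5.44 in the last, and solvent libraries 120% ± 9.89 and 50.1% ± 16.9 (n = 12 each), with overlapping ranges.

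CDKN2B-AS1 showed all 3 levels along its length. Its 38.2 kb in the core had 4 sites over 27 libraries, all in MGMT cells. Its stretch through the side after the core is that whole side, with the values above. Its last 32.1 kb beyond the outer edge reached 129% ± 5.77 of the flanks in naked DNA (n = 3), 121% ± 18.9 in WT and 117% ± 22.4 in MGMT cells (n = 12 each).

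DMRTA1 (chr9:22446824-22455740, 8.92 kb), a gene of the DMRT family of transcription factors, starts 351 kb beyond the outer edge. It had 109%, 94.3% and 132% of the flanks in naked DNA, 68.9% ± 46.5 in WT cells and 79.6% ± 53.6 in MGMT cells (n = 12 each), with a range over cells of 0% to 225%. The cell libraries held few sites there, 190 in 24 libraries, of which WT solvent 3x replicate 1 had 0. By treatment, TMZ libraries had 90.8% ± 33.7 from 150 sites and solvent libraries 57.7% ± 58.0 from 40 (n = 12 each). The highest value, 225%, came from 5 sites in MGMT solvent 1x replicate 1 and is part of the solvent and MGMT means. What the spread depends on was not tested. ELAVL2 (chr9:23690104-23850601, 160 kb) starts 1590 kb beyond the outer edge. It had 98.6% ± 5.97 in naked DNA, 96.9% ± 13.5 in WT and 93.2% ± 10.2 in MGMT cells, and its lowest library reached 72.8%. The nearest protein-coding gene on the telomeric side of MTAP was the interferon gene IFNE, which ends 483 kb before the core and had sites in 19 of 27 libraries over its 1.48 kb.

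**Figure D4:**
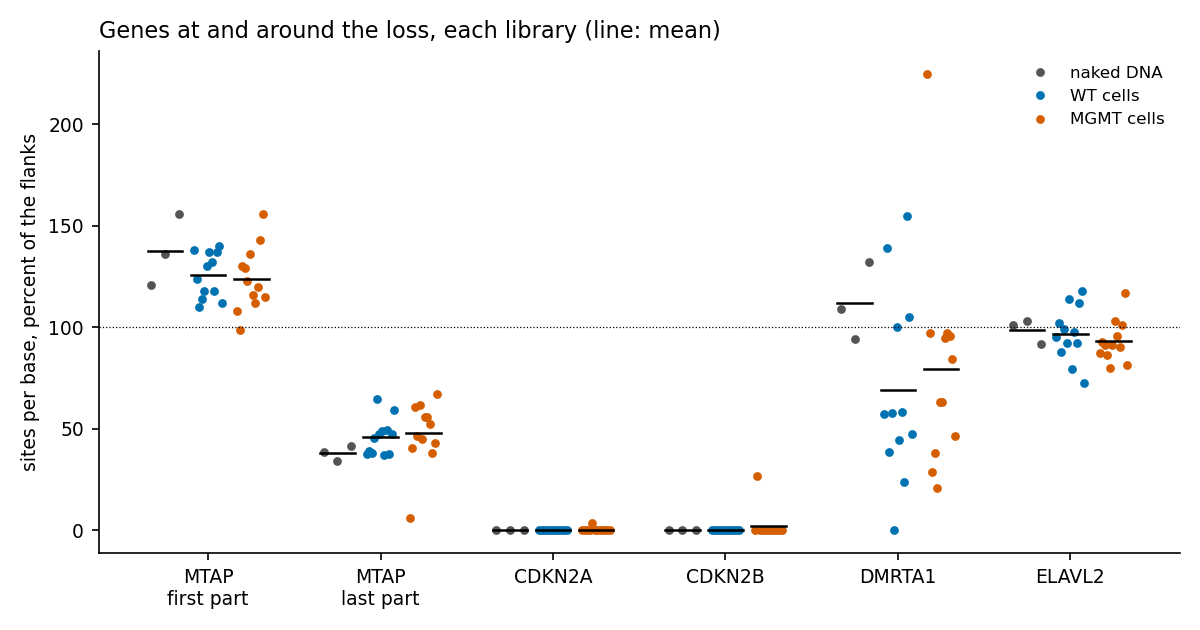
Sites per base as a percentage of the flanks (y axis) for the parts of MTAP and for CDKN2A, CDKN2B, DMRTA1 and ELAVL2 (x axis), with each library as a point and the mean as a line, for naked DNA (n = 3), WT and MGMT cells (n = 12 each). CDKN2A and CDKN2B are at 0 in all but 1 library each, the last part of MTAP lies under its first part in every library, and DMRTA1 spreads from 0% to 225% in cells.

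All 36 protein-coding genes of the 7 Mb had at least 1 site over the 27 libraries, and 3 had 1 site only, CDKN2A, CDKN2B and the far shorter IFNA13. A site count of 1 over the 27 libraries was therefore not taken to show whether a gene is present. Per length and relative to the autosomes, their median level was 0.78 in naked DNA, 0.762 in WT and 0.743 in MGMT cells, against 1.21, 1.06 and 1.06 for all 19126 autosomal protein-coding genes. The type I interferon cluster lies before MTAP, where no 10 kb window was missing. The list of 17 genes also holds KLHL9, which lies among them and is not an interferon gene. KLHL9 had 179 sites over the 27 libraries, and the interferon genes had few. IFNA13 had 1 with a score of 30 or more beside 20 with a lower score, while IFNA8 had 31 beside 0. The list had medians of 0.576 in naked DNA, 0.307 in WT and 0.599 in MGMT cells. These medians rest on small counts and were not compared by a test. Only 2 of the 17 genes had enough sites for the gene fits below, and neither passed for MGMT against WT.

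A list of 13 genes of the CDK4/6-RB and p53 pathway was examined for the same pattern, and CDKN2C also had almost no sites. CDKN2C (chr1:50960745-50974634), which encodes p18INK4c, a further inhibitor of CDK4 and CDK6, had 0 sites in naked DNA, 0 in WT and 2 in MGMT libraries. It lay in a run of missing windows from 50890001 to 50990000 on chromosome 1, and finer edges on naked DNA gave a core of 110 kb, from 50884001 to 50994000. That core had 1 site in naked DNA where flanks of 1 Mb on each side would give 1171, 2 in WT cells against 1872 and 8 in MGMT cells against 2029, or 0.0854%, 0.107% and 0.394% of the flanks. Of the 8 sites, 6 came from MGMT solvent 1x replicate 2, which also had 1 of the 6 sites in the core on chromosome 9. Sides with fewer sites flanked this core too. The 178 kb after it reached 37.9% ± 11.0 of the flanks in naked DNA, 42% ± 7.92 in WT (28.4% to 55.4%) and 57.4% ± 10.4 in MGMT cells (44.5% to 77.1%). Replicates 1 and 2 of naked DNA, made from cells without MGMT, had 35.1% and 28.5%, and replicate 3, made from MGMT cells, was the highest of the 3. The 22 kb before it reached 27% ± 6.73 in naked DNA, 36.1% ± 12.2 in WT and 54.4% ± 16.7 in MGMT cells. On each side MGMT was above WT in 11 of 12 comparisons of same-numbered libraries, with overlapping ranges. This was noticed in the data and was not tested.

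The remaining INK4 gene, CDKN2D (p19INK4d), was present, with 140 sites over 22 of 27 libraries and a level of 2.04 ± 0.857 in naked DNA relative to the autosomes. The other 11 genes of that list had sites in 27 of 27 libraries, among them the retinoblastoma gene RB1 (0.945 ± 0.0995 in WT), CDK4 (1.76 ± 0.593) and MDM2 (0.843 ± 0.119). All 7 genes of the methionine salvage and PRMT5 list were present, with levels from 0.851 to 1.33 in WT cells and a median of 1.0. On the autosomes, naked DNA had 234 missing runs as long as the one at CDKN2A or longer, of which 104 held a whole protein-coding gene and 93 of these did not begin at a chromosome start. Only 3 of the 93 had fewer than 100 low-score sites per window over the 27 libraries. They were those at CDKN2C (25.9), at CDKN2A and CDKN2B (31.8) and at UGT2B17 on chromosome 4 (97.0), a gene of glucuronidation that is absent from many genomes. The next run had 150. The limit of 100 was set after these values had been seen.

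The flanks gave the depth of the comparison and were compared in their own right. Relative to all autosomal sites per base, the flank before the stretch (19000001 to 21970000) stood at log2 -0.13 ± 0.079 in WT and -0.17 ± 0.084 in MGMT cells (n = 12 each), a difference of -0.041 that did not pass the test (exact permutation test, p = 0.121, adjusted p = 0.257). Within the 4 sets of cell libraries it was -0.14, -0.018, -0.025 and -0.010. It passed the test with the replicate numbers as a block, as given at the end with the other processing choices. With G sites only it was -0.073 and its unadjusted p was 0.0309 (exact permutation test), and scaled to the rest of chromosome 9 it was -0.0079 (exact permutation test, p = 0.822). Without MGMT solvent 1x replicate 1 it was -0.025. The flank after it (22030001 to 26000000) stood at -0.27 ± 0.15 in WT and -0.28 ± 0.17 in MGMT cells (difference -0.011, exact permutation test, p = 0.795, adjusted p = 0.901). That difference turned to 0.017 without MGMT solvent 1x replicate 1, 0.0014 without replicate 2 and 0.022 scaled to the rest of chromosome 9. In naked DNA both were lower, at -0.26 ± 0.023 and -0.49 ± 0.033 (n = 3). The flank after the stretch was lower than the flank before it in 23 of 24 cell libraries, with a mean difference of -0.125 ± 0.093 on the log2 scale (permutation test by sign flips, p = 1e-05, adjusted p = 4.25e-05). Both flanks are fixed places and all libraries are of LN-229, so this test shows only that the libraries repeat the step. Base composition and copy number cannot be told apart for it.

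In TMZ libraries a smaller share of the autosomal sites fell in both flanks than in solvent libraries. They stood at -0.20 ± 0.054 in the flank before the stretch against -0.098 ± 0.077 in solvent libraries (difference -0.099, lower in 11 of 12 same-numbered comparisons, exact permutation test, p = 0.00251, adjusted p = 0.0061). In the flank after it they stood at -0.38 ± 0.12 against -0.16 ± 0.11 (difference -0.22, lower in 11 of 12, exact permutation test, p = 0.00085, adjusted p = 0.00241). In each of the 3 sets with TMZ and solvent libraries both differences were negative. The first was -0.036, -0.082 and -0.11, and the second -0.013, -0.19 and -0.30. The fourth set held solvent libraries only and the fifth naked DNA. Without MGMT solvent 1x replicate 1 the differences were -0.12 and -0.25. Without replicate 3 of each group the first was -0.086 and no longer passed (exact permutation test, p = 0.0509). The share of sites at G in the flanks moved with them: it was 48.3% ± 10.7 in TMZ and 20.7% ± 5.65 in solvent libraries (difference 27.6 points, higher in 11 of 12, exact permutation test, p = 3.75e-05, adjusted p = 0.000127), and 7.5, 24.2 and 36.5 points within the 3 sets. By group it went from 44.2% ± 5.22 in WT TMZ 1x to 59.4% ± 1.92 in WT TMZ 3x, and from 34.9% ± 5.15 to 54.7% ± 5.11 in MGMT cells (n = 3 each), with 66.7% ± 1.56 in naked DNA. Counted at G sites only, the TMZ difference was -0.0825 in the first flank and -0.167 in the second (exact permutation test, unadjusted p = 0.0295 and 0.0119). The part of the G share in the lower flank levels was not tested.

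**Figure D5:**
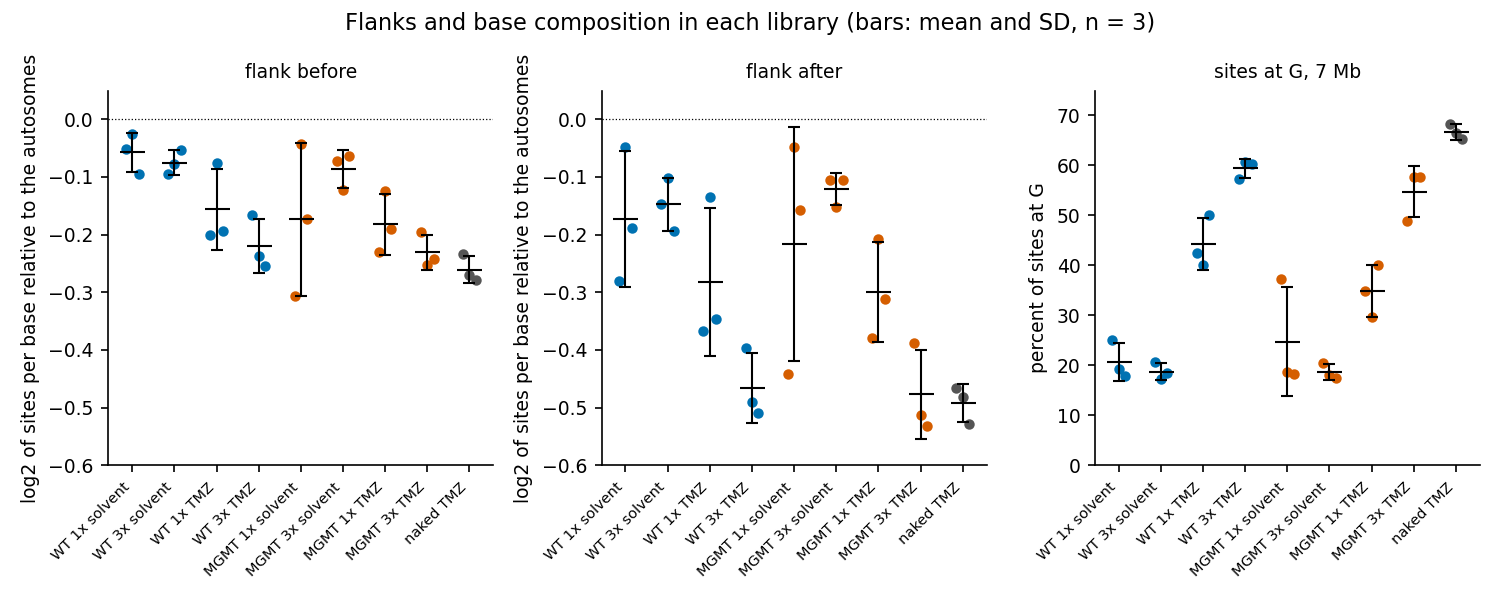
The log2 of sites per base relative to the autosomes for the flanks before and after the stretch, and the percentage of sites at G in the 7 Mb (y axes), in each library (points) of the 9 groups (x axis), with mean and SD (n = 3). TMZ groups lie lower in both flanks and higher in sites at G than their solvent groups, naked DNA has the highest G share, and MGMT 1x solvent replicate 1 is the lowest solvent library in both flanks, at -0.306 and -0.441.

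The same contrasts were fitted with limma's voom across all windows and genes. For MGMT against WT, 3 of 693 tested windows of the 7 Mb passed an adjusted p of 0.05 (0.433%), against 4.42% of 279496 windows. All 3 were lower in MGMT cells (backgrounds 1.54% lower and 2.88% higher) and at least 2 Mb from the stretch: 19030001 to 19040000 (log2 difference -0.73, SE 0.23, limma adjusted p = 0.0427), 19310001 to 19320000 (-0.78, SE 0.23, 0.0341) and 24950001 to 24960000 (-0.80, SE 0.22, 0.0221). The same fit with a replicate block, without a minimum score, without replicate 2 or without replicate 3 called 0, and without replicate 1 it called 2. The shares over all windows in these fits were 2.1%, 1.93%, 0.648%, 0.575% and 3.38%. Limma-trend with median-of-ratios library sizes, which changed the method and the sizes together, also called 0, against 1.1% of all windows. For genes 0 of 18 tested passed with limma (0 also at an unadjusted p under 0.05, and 0 with limma-trend and median-of-ratios sizes), against 19.6% of 18674 genes. MTAP differed by 0.010 (SE 0.074), DMRTA1 by 0.18 (SE 0.27) and ELAVL2 by -0.052 (SE 0.064) on the log2 scale.

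For TMZ against solvent, 5 windows of the 7 Mb were higher and 62 lower (67 of 693, 9.67%), against 15.7% of all windows (8.41% higher and 7.26% lower). Limma-trend with median-of-ratios sizes called 40 in all (5.77%, against 8.01% of all windows). A fit with a replicate block called 36 (5.19% against 9.13%). Fits without replicate 2 or 3 called 29 and 27 (4.18% and 3.9%, against 6.81% and 6.32%). On the centromeric side of the core 45 of 397 were lower and 0 higher, and before it 17 of 296 were lower and 5 higher. The windows 21870001 to 21880000 and 21880001 to 21890000, at the outer edge in MTAP, were among the lower ones (log2 difference -0.67, SE 0.20, limma adjusted p = 0.0134, and -0.95, SE 0.27, 0.00919). Of the 18 genes tested, 0 rose and 6 fell, against 47.1% of all genes (23.8% higher and 23.3% lower). Without the filter on low values 17 of 36 were called lower and 0 higher. Over all 19668 genes of that fit 45.4% were called, 4388 higher and 4550 lower. The genes added there had too few sites for the filter, and their calls were not taken as falls. MTAP fell by 0.34 on the log2 scale (SE 0.074, limma adjusted p = 0.000224). The other 5 were FOCAD, a gene of the same arm that encodes the protein focadhesin (-0.41), the fatty acid elongation gene HACD4 (-0.45), DENND4C (-0.32), the sodium-calcium exchanger gene SLC24A2 (-0.29) and MLLT3 (-0.26). DMRTA1 had 0.55 (SE 0.27, adjusted p = 0.0865) and ELAVL2 -0.13 (SE 0.064, adjusted p = 0.081), neither past the threshold. In this fit each library was scaled to its sites in the genes tested. Relative to all autosomal sites per base, MTAP stood at 0.716 ± 0.0569 in TMZ and 0.795 ± 0.121 in solvent libraries. ELAVL2 stood at 0.838 ± 0.0679 in TMZ and 0.809 ± 0.0847 in solvent libraries (n = 12 each). The sign for ELAVL2 thus depended on the scale. CDKN2A and CDKN2B had too few sites to be tested.

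In the pathway lists, 12 of 13 genes of the CDK4/6-RB and p53 list could be tested, CDKN2C being the exception. For MGMT against WT 2 fell and 0 rose, against 7.3% lower and 12.3% higher of all genes: the kinase gene CDK6 (log2 difference -0.45, SE 0.054, limma adjusted p = 6.31e-09) and the transcription factor gene E2F1 (-0.48, SE 0.16, 0.0232). For TMZ against solvent 3 rose (CCND1, E2F1 and CDKN1A) and 3 fell (RB1, CDK6 and MDM2), close to the 23.8% higher and 23.3% lower of all genes. In the methionine salvage and PRMT5 list of 7, ADI1 and MAT2A rose in MGMT cells (0.41 and 0.61) and 0 fell, against 12.3% higher and 7.3% lower of all genes. For TMZ WDR77 rose (0.43) and ADI1 fell (-0.42), against 23.8% and 23.3% of all genes. Of the interferon list 2 of 17 had enough sites to be tested, IFNW1 and KLHL9, which is not an interferon gene. Neither passed in either contrast.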

How the data were processed

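O6-MeG-seq site lists of 27 libraries were used as deposited. Per the submitters' processing notes the build was GRCh38, and Trimmomatic (0.38 and 0.39), cutadapt, Bowtie2 (2.3.5.1), GATK (4.2.0.0), SAMtools (1.12) and bedtools (2.29.2) were used, with FastQC (0.11.9). How duplicates were treated is not given in the sources used here. The files deposited by the authors give chromosome, position, strand, base and a score from 0 to 42 per site, with no read counts, so each site counted 1 time and positions are given counted from 1.

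Per 10 kb window, gene and segment, sites scoring at least 30 were counted (Python 3.11.15, NumPy 2.4.6, pandas 2.3.3). Flanks are the parts of 19 to 26 Mb outside the outer edges, except for the tests of the flanks and of the level inside, which took all windows outside the called stretch. Missing windows were joined over at most 2 others. Edges are Poisson change points in 1 kb bins, searched up to 100 kb (core) or 200 kb (sides) from the called stretch on naked DNA. For single values the tests were two-sided, either exact permutations of the libraries within the other factors or sign flips (100000 resamples), and p-values were adjusted over 17 tests (Benjamini-Hochberg), of which 7, on the sides, were added after the data had been seen.

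Windows and genes that reached 5 sites in 3 or more libraries were fitted with limma 3.58.1 (voom, trimmed-mean sizes with 30% of ratios and 5% of averages trimmed, 8 group means over 24 cell libraries). Library sizes came from the sites in the windows or genes of each fit, so gene differences are relative to the other genes. On simulated 2-fold changes for MGMT against WT, 60% of 200 windows were recovered with 7 false calls (29973 windows) and 81.5% of 200 genes with 9 (18530 genes). The sets of libraries join pairs that share non-G positions more than 1.6 times as often as the median pair. Whether replicate numbers pair libraries was checked over 2717 bins of the autosomes: 7 of 12 genotype pairs and 8 of 12 treatment pairs had r over 0.1, so the numbers were not taken as pairs. Same-numbered WT and MGMT libraries of a treatment and exposure number nevertheless always fell in the same set. Same-numbered TMZ and solvent libraries did so except for replicate 3 of the 3x groups. Genes named are the 5 members, those in the stretch or nearest to it, and those of the fixed lists, beside UGT2B17, which was chosen after its values were seen. Members and lists were chosen with earlier results of these data known. The p-values measure the spread between these libraries.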

Additional observations from a re-analysis of the deposited data

Results flagged for a closer look

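The sites with a score under 30 were left out of the main comparisons and entered only the alternatives without a minimum score. Inside the core they were not spread evenly. Of 196 such sites over the 27 libraries, 175 lay in 3 kb, from 22014001 to 22017000 on chromosome 9, and each of the 27 libraries had at least 1 there. In the whole core 188 of the 196 had a score of 0 or 1. This 3 kb stretch holds no protein-coding gene of the table. It was singled out as a signal in data that the main comparisons do not use. The limit of 3 counts for a count of 0 was set for sites with a score of 30 or more and is no measure for these. Low scores of this kind are given to reads that fit several places about equally well. Whether these sites come from the core was therefore not determined.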

How the results depend on the processing

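The called stretch began at 21960001 to 21970001 and ended at 22030000 to 22035000 under the alternatives run, except with windows of 20 kb, which ended it at 22020000. The TMZ differences in the second flank and in sites at G kept their direction and passed the test under every alternative run for them. So did the lower level of both sides, their difference and the step between the flanks. For the sides and the step this shows only that libraries of LN-229 repeat differences between fixed places. It is no independent support for the sides, which were placed on naked DNA of the same genome. Same-numbered libraries deviated together in some but not all pairs, so the numbers were not taken as pairs. With the numbers as a block the difference between MGMT and WT in the first flank, -0.041, passed the test (exact permutation test, p = 0.0171), as it did with G sites only (-0.0725, p = 0.0309, exact permutation test), while scaled to the rest of chromosome 9 it was -0.00791 (exact permutation test, p = 0.822). The block called 0 windows for MGMT and 36 for TMZ, against 2.1% and 9.13% of all windows. Limma-trend with median-of-ratios sizes, 2 changes at once, called 0 and 40, against 1.1% and 8.01%. A fit without a minimum score called 0 for MGMT, against 1.93%. Without the filter 17 of 36 genes were called for TMZ (47.2%), against 45.4% of 19668 genes. The causes were not tested.

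Differences that had not passed the test changed sign as follows. Without a minimum score, the level inside was -5.47 for TMZ, the edges differed by 1.25 and 9.42 kb, and the sides by -8.33 (before, TMZ, exact permutation test, p = 0.0345, same sign and past the threshold), 2.35 (after, MGMT) and -2.87 (after, TMZ). With G sites only, the centromeric edge differed by 5.42 kb and the side before the core by -1.56 (MGMT) and 0.0627 (TMZ). Scaled to the rest of chromosome 9, the second flank differed by 0.0222 (MGMT).

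Leaving out a replicate number or MGMT solvent 1x replicate 1 gave ranges of 0.178 to 1.3 (MGMT) and -0.178 to 0.34 (TMZ) for the level inside, -0.0523 to -0.0245 for the first flank (MGMT), -0.0332 to 0.0173 for the second flank (MGMT), -0.116 to -0.0863 for the first flank (TMZ), -6.5 to 2.71 kb and -2.12 to 0.625 kb for the edges, 0.0429 to 5.15 (MGMT) and -7.58 to -2.09 (TMZ) for the side before the core, -9.55 to 2.97 for the side after the core (MGMT) and -0.839 to 5.91 (TMZ). Windows called ranged from 0 to 2 (MGMT) and 27 to 55 (TMZ), against 0.575% to 3.38% and 6.32% to 13.3% of all windows. Depth limits single libraries: a count of 0 in the smallest allows up to 22.5% of the flanks in the core.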
